A study of Mus musculus with 5 samples.

Results

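Chd1, 1 of 284 genes that could be compared, encodes a chromatin remodeller and was read here on mouse chromosome 17 tiling arrays of embryo fibroblast RNA. It was followed through the 232 probes that the deposited files place on chromosome 17 between positions 14545000 and 14589999, of 387986 probes on that chromosome, which is 0.0598% of them. The interval was selected on its measured levels: log2(cDNA/input), centred on each array's median, showed peaks like exons and signal between them on all 5 arrays. Levels inside the interval are therefore a description and carry no test. The differences between RNA fractions and between cell lines were not used in the choice and were tested.

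The study mapped transcription along mouse chromosome 17 in a pair of independent embryo fibroblast lines, MEFF and MEFB. Both lines were immortalised spontaneously from embryos of 12.5 days post coitum, and their strain is given as FVBN. MEFF has the genotype Thp/+ and MEFB the genotype +/Thp (reciprocal deletions, 1 on the maternal and 1 on the paternal chromosome). The labels put Thp between T and Sod2 and its length at no less than 4.6 Mb, and Chd1 lies outside these bounds in mm9. No group lacks the deletion and no treatment is named. The 3 groups were MEFF total RNA (2 arrays), MEFF polyA RNA (2 arrays) and MEFB polyA RNA (1 array). On every array Cy3 carried double-stranded cDNA, which keeps no strand, while the Cy5 channel was input, sonicated genomic DNA labelled with the same genotype. Separate cultures are not named for the arrays of a group. The p-values thus reflect the array-to-array spread alone, which may be technical, and the number of arrays limits the precision. Line and parental copy of the deletion cannot be told apart, and MEFB has no replicate.

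CHD1 is an ATP-dependent chromatin remodeller of the chromodomain helicase DNA-binding family. It slides and spaces nucleosomes over transcribed genes, and its paired chromodomains bind methylated tails of histone H3 near active promoters. It is broadly expressed, and in mouse it is known for keeping the chromatin of pluripotent cells open.

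Because the files name no genome build, probes were taken in blocks of 25 kb and set on the NCBIM37 genome by their input signal and base composition alone, without using cDNA. The 4 blocks that hold Chd1 took shifts between 1319701 and 1319708 bases, with correlations between predicted and measured input of 0.507 to 0.594 (95 to 130 probes a block). Each correlation was the highest among the shifts tried, so it is high by construction. A block from position 14650000 reached 0.562 and was not placed. Of the blocks of Chd1, 2 took their own best shift and 2 were placed by agreement with a neighbour. For the first 2 the standardised correlation was 6.0 and 6.41, against 4.4 and 4.27 at the next best shift. For the other 2 it was 4.86 and 5.2, against 4.23 and 4.44. In the GENCODE vM1 annotation Chd1 (ENSMUSG00000023852) lies at chr17:15841931-15909574 on the plus strand of NCBIM37. It spans 67644 bases and has 36 exons and 35 introns, and its coding sequence of 5133 bases runs from exon 2 into exon 36. The chosen interval begins 22773 bases after the start of the gene and ends 129 bases past its end. The whole gene holds 354 placed probes, of which 59 have at least 25 of their 50 bases in an exon and 287 touch no annotated exon. The other probes touch an exon with fewer bases. These 59 exon probes lie in 29 of the 36 exons, with 51 of them inside the interval.

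The sequences of 4 inner coding exons are shown because these exons span the range of the exon levels given further on: exons 20 and 29 were the brightest inner exons on the mean of the 5 arrays and exons 4 and 16 the dimmest. They were picked after their values were seen. Capitals mark the bases under the single placed probe of each exon, which numbers 26 bases of exon 4 (chr17:15863213-15863326), 33 of exon 16 (chr17:15879121-15879283), and 50 each of exon 20 (chr17:15886337-15886485) and exon 29 (chr17:15897292-15897414). The edges of the capitals carry the uncertainty of the shifts. Sequences are from the NCBIM37 genome at the exons of the GENCODE transcript, on the plus strand, 5′ to 3′.
exon 4: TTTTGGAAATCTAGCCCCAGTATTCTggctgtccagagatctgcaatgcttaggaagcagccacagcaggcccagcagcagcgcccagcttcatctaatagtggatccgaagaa
exon 16: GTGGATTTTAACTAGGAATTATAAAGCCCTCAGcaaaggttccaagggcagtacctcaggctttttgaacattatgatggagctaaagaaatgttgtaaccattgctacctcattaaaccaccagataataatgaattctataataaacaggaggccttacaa
exon 20: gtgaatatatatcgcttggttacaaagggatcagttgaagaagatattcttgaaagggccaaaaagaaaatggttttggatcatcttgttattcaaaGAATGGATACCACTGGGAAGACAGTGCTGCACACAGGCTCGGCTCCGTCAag
exon 29: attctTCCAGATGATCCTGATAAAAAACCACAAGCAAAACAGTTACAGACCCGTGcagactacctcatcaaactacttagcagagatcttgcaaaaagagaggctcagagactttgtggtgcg

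All 5 arrays showed Chd1 exons well above the chromosome's median. The mean level of the 59 exon probes, as log2(cDNA/input), was 2.06 and 1.97 with total RNA of MEFF, 2.58 and 3.70 with its polyA RNA, and 3.18 with polyA RNA of MEFB. The SD over probes was 1.30, 1.25, 1.47, 1.70 and 1.61 in the same order. Both total RNA arrays lay below all 3 polyA arrays, and the MEFB array lay between the MEFF polyA arrays. For a difference between the lines, bulk RNA cannot tell fewer cells that express Chd1 from less Chd1 RNA per cell. Between 43 and 52 of the 59 exon probes had a level above 1 on each array.

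Introns were lower than exons on every array but above the flanks. The mean level of the 287 intron probes was 0.43 and 0.39 with total RNA of MEFF, 0.36 and 0.57 with its polyA RNA, and 0.67 for MEFB. The groups overlapped, since the MEFF polyA arrays lay on both sides of the total RNA arrays. Of the intron probes, 82.9% to 87.1% had a level above 0 on each array, against 37.3% to 42.5% of the 153 probes within 20 kb on either side of the gene. On the scale of cDNA intensity, the median intron probe read 3346 and 3235 for total RNA, 1803 and 819 for polyA RNA of MEFF, and 1065 for MEFB. The median flank probe read 2489, 2440, 1564, 577 and 749 in the same order. The median exon probe read 12446 to 14266 on the 5 arrays. No Chd1 probe reached the scanner limit of 65535, and the highest cDNA intensity of the gene was 60598.

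**Figure D1:**
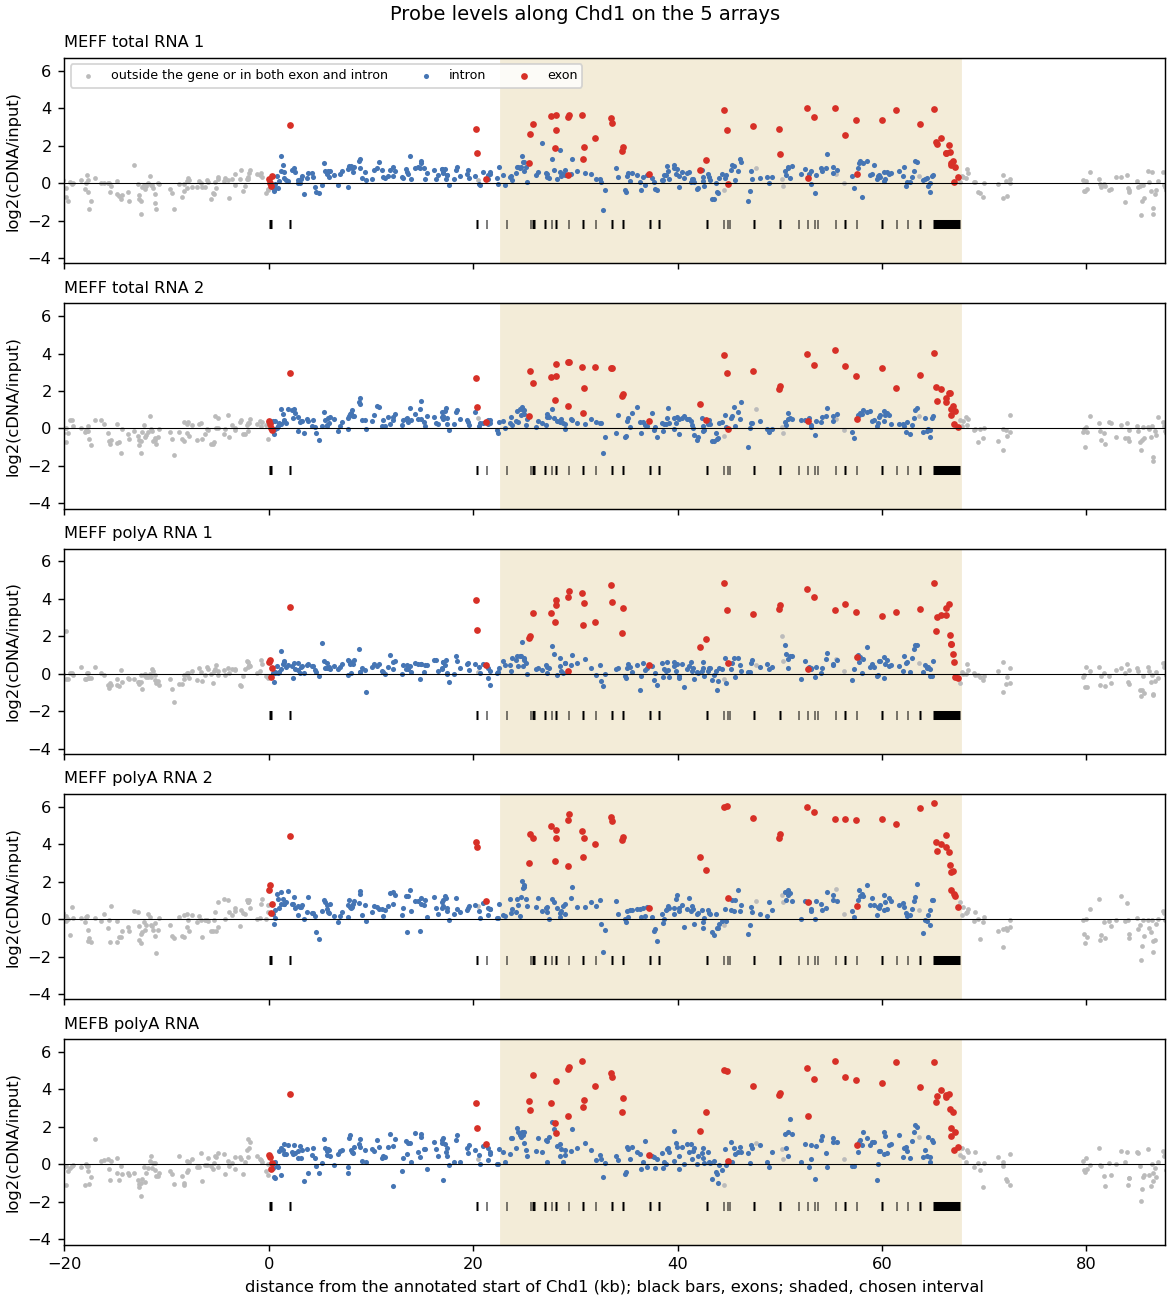
Level of each probe, as log2(cDNA/input) centred on the array median, against distance from the annotated start of Chd1 in kb, with 1 panel per array. Red points are the 59 exon probes, blue points the 287 intron probes and grey points other probes, black bars mark exons and the shading marks the chosen interval. Most red points stand above the blue points in every panel, and those over exon 1 and at the end of the last exon lie among them, while grey points beyond both ends of the gene scatter around or below 0.

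Signal was near the array median just beyond both ends of the gene. The mean level of the 48 probes in the 10 kb before the gene was -0.04, -0.05, 0.00, 0.09 and 0.05 on the 5 arrays, in the order used throughout (MEFF total, MEFF total, MEFF polyA, MEFF polyA, MEFB polyA). The 18 probes in the 10 kb after it had means of -0.01, -0.07, -0.06, -0.17 and 0.02. These 18 probes all lie in the 5 kb window from position 14590000. Both near flanks thus lay near the array median in all 3 groups. Further after the gene levels rose again, in blocks that were not placed. The window from 14640000, for example, had 1.19, 1.17, 1.00, 1.75 and 0.99. The neighbours in the annotation are Gm7177, a pseudogene, and Prdm9, a histone methyltransferase gene of meiosis, before Chd1, and Rgmb, a co-receptor gene of BMP signalling, and U6 after it. Prdm9 held 2 exon probes with mean levels of 0.24, 0.04, 1.10, 1.25 and 0.92, and Rgmb was not placed.

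**Figure D2:**
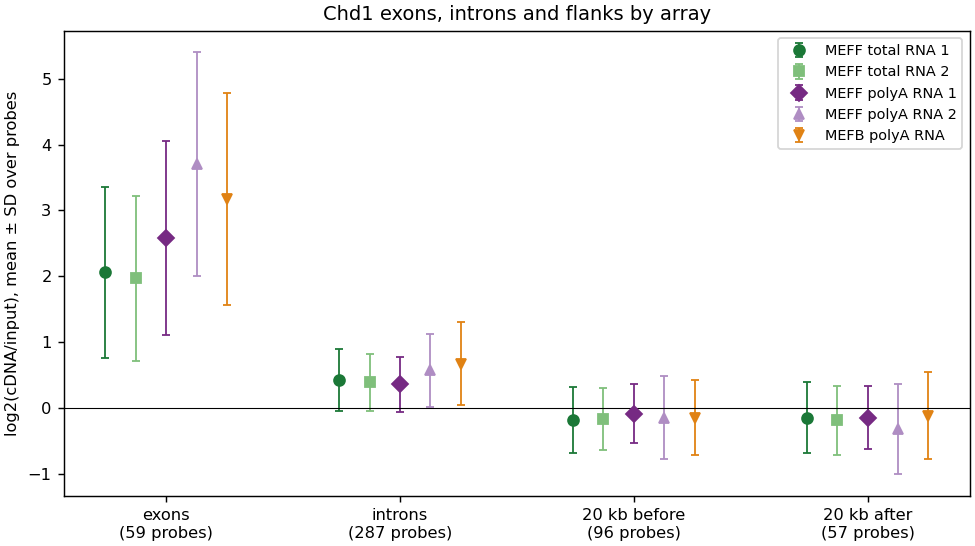
Mean level of the exon probes, the intron probes and the probes within 20 kb before and after Chd1, as log2(cDNA/input), with 1 point per array and bars for the SD over probes. The exon points of the total RNA arrays, at 2.06 and 1.97, lie below those of the polyA arrays, at 2.58 to 3.70, while the intron points lie between 0.36 and 0.67.

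The chosen interval cuts into the gene, so signal continued on its near side. In 5 kb windows, the first window inside (from position 14545000) had mean levels of 0.96, 0.80, 0.88, 1.31 and 1.52, and the window just outside it (from 14540000) had 0.55, 0.51, 0.52, 0.85 and 0.80. At the far edge, the last window inside (from 14585000) had 1.03, 0.98, 1.41, 1.93 and 2.05, and the next one outside (from 14590000) had -0.01, -0.07, -0.06, -0.17 and 0.02. The near edge thus lies within transcribed Chd1 and the far edge at its end. The 8 exon probes before the interval had a mean level of 1.03, 0.96, 1.46, 2.24 and 1.35, and the 51 inside it 2.22, 2.13, 2.75, 3.93 and 3.47. The 114 intron probes before it had 0.46, 0.47, 0.34, 0.61 and 0.59, against 0.40, 0.33, 0.37, 0.54 and 0.72 for the 173 inside it. Over all 232 probes of the interval the mean level was 0.80, 0.72, 0.90, 1.30 and 1.32.

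Exons differed widely among themselves. Exon 20 had levels of 3.93, 3.91, 4.87, 5.96 and 5.03, with both total RNA arrays lowest. Exon 29 had 4.00, 4.17, 3.39, 5.35 and 5.51, so that 1 MEFF polyA array lay below both total RNA arrays. Exon 2, which holds the start codon, had 3.12, 2.99, 3.55, 4.42 and 3.74. These 3 exons were bright on every array.

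A few exons were dim on every array. Exon 16 had levels of 0.48, 0.40, 0.44, 0.58 and 0.51, and exon 4 had 0.22, 0.33, 0.47, 0.95 and 1.09. The single probe of each reaches over the exon's edge, as the capitals in the sequences show, so part of each probe lies in an intron. Over exons 2 to 36, the 38 probes that lie fully in an exon had a mean of 2.39, 2.31, 3.0, 4.15 and 3.55, against 1.78, 1.65, 2.15, 3.31 and 3.05 for the 17 probes with 25 to 49 exon bases. Exon 1, which is untranslated, had 4 probes with mean levels of 0.11, 0.13, 0.36, 1.14 and 0.18. Its GC content is 79.5%, against 35.0% in exon 2, and whether base composition bears on its level was not tested. The MEFF polyA arrays lay far apart in some exons, such as exon 35, with 3.48 and 5.91, against 3.17 and 2.83 in total RNA and 4.15 in MEFB.

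**Figure D3:**
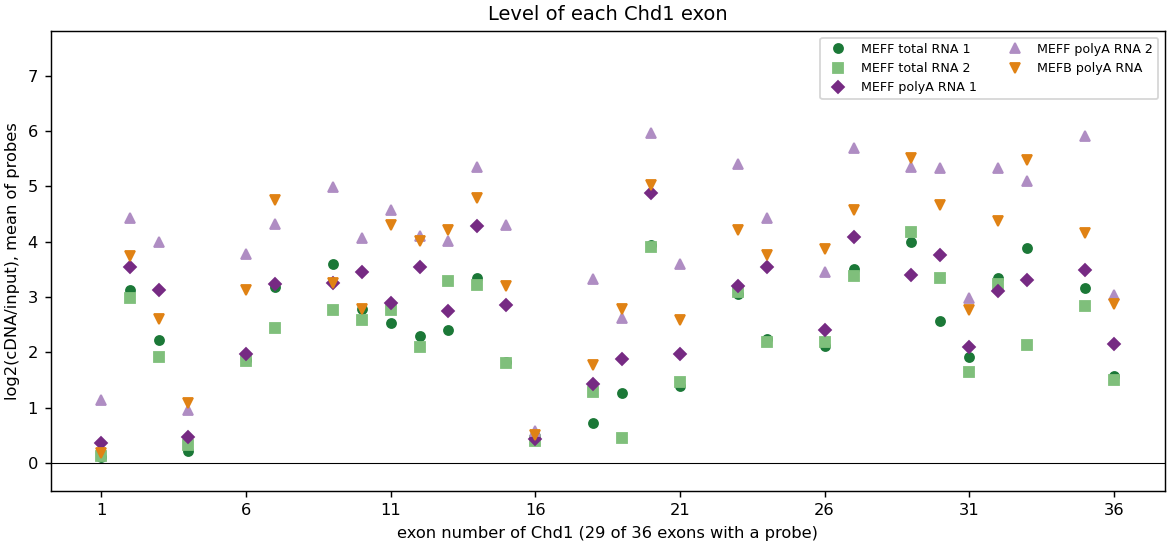
Mean level of each of the 29 Chd1 exons with a probe, as log2(cDNA/input), against exon number, with 1 marker per array. Exon 20 is high on all 5 arrays, at 3.91 to 5.96, and exon 16 is low on all 5, at 0.40 to 0.58, and in most exons the total RNA markers lie below the polyA markers.

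Introns also differed. Among the 9 introns with at least 8 probes, intron 5 (14 probes) was among the highest, with levels of 0.72, 0.65, 0.69, 1.04 and 1.32, and intron 31 (13 probes) had 0.60, 0.65, 0.55, 1.01 and 0.87. Intron 19 (10 probes) was at the array median, with -0.09, -0.11, -0.02, -0.15 and -0.20. Intron 2, the longest at 18129 bases and with 90 probes, had 0.51, 0.52, 0.37, 0.61 and 0.65. As deposited, both total RNA arrays lay above all 3 polyA arrays in 0 of the 9 introns and below them in 0. Among intron means of all 284 genes, 2.8% lay above and 31.3% below. Those means take in all introns of a gene, with at least 20 probes, so they are not like single introns. After normexp background correction (offset 50), both lay above in 3 of the 9 introns, intron 19 among them, and below in 0. A share over other genes was not taken after normexp, so this count is a description only. The mean over all intron probes was then 1.47, 1.27, 1.16, 1.27 and 1.31, where the groups overlapped.

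The last exon declined along its length. Exon 36 has 2633 bases, begins with the end of the coding sequence and has 14 probes. Its 2 coding probes had mean levels of 3.09, 3.12, 3.57, 5.14 and 4.42. The 4 untranslated probes within the first 1500 bases had 1.92, 1.66, 3.19, 3.99 and 3.74. The 5 probes from 1500 to 2000 bases had 1.39, 1.36, 2.01, 2.62 and 2.59, and the 3 beyond 2000 bases had 0.40, 0.43, 0.06, 1.07 and 1.13. On all 5 arrays the coding part was highest and the stretch beyond 2000 bases lowest. The gap between total and polyA RNA was widest in the untranslated part within the first 1500 bases. There both total RNA arrays lay below all 3 polyA arrays at each of the 4 probes, against 56.3% of the exon probes of all genes compared. This part was singled out after its values were seen.

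A search for AATAAA, the usual signal for cleavage and polyadenylation, on the plus strand of exon 36 found 4 matches. They are shown because the levels decline along this exon and the motif lies near the annotated end and well before it. A link between the motif and the levels was not tested. Matches 1 and 2 begin at bases 739 and 761 of the exon and matches 3 and 4 at bases 2606 and 2613, and within each pair the printed windows overlap. Of 34864 windows of the same length on the chromosome, read on the same strand, 80.9% hold the motif, with a mean of 2.55 matches, so a match is a description of the sequence only. Capitals mark the motif, and the windows are chr17:15907668-15907697, chr17:15907690-15907719, chr17:15909535-15909564 and chr17:15909542-15909571 of NCBIM37, plus strand, 5′ to 3′.
match 1: gtttcaggaaggAATAAAagagaggtcttt
match 2: aggtcttttcttAATAAAgaaaaatcactc
match 3: ttccattttaatAATAAAcaataaaagatt
match 4: ttaataataaacAATAAAagattcttatta

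**Figure D4:**
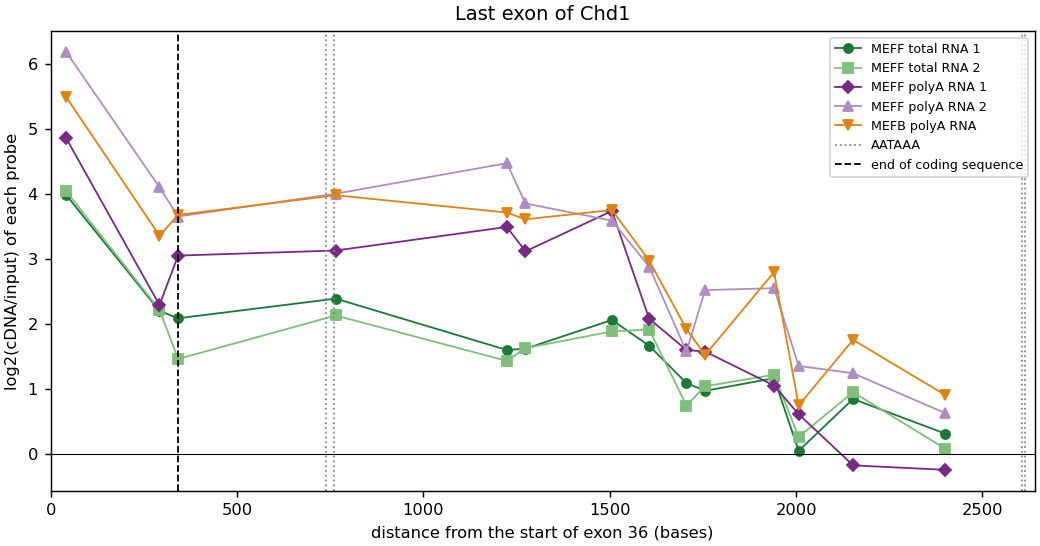
Level of each of the 14 probes of exon 36, as log2(cDNA/input), against distance from the start of the exon in bases, with 1 line per array. The dashed line marks the end of the coding sequence and dotted lines mark AATAAA, and all 5 lines fall from 3.98 to 6.18 at the first probe to -0.25 to 0.91 at the last one.

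Total RNA holds all RNA of a line, and polyA RNA its polyadenylated part, and the tests compare these fractions in MEFF. The probe counts that follow set the MEFF total RNA arrays against all 3 polyA arrays, MEFB included. At 43 of the 59 exon probes (72.9%) both total RNA arrays lay below all 3 polyA arrays, and at 0 they lay above. Over the exon probes of all 284 genes compared, 56.3% had both total RNA arrays below and 2.6% above, so most of the Chd1 share is matched by the background. At 50 of the 287 intron probes (17.4%) the total RNA arrays lay below and at 17 above, against 13.4% and 9.23% of all intron probes.

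The exon level of Chd1 differed by -1.12 (log2, total minus polyA; SE 0.44; 95% interval -2.43 to 0.18), with an adjusted p of 0.24 in limma over 568 exon and intron means, so the difference did not pass the threshold of 0.05. limma called the exons of 0 of 284 genes (0.0%) as deposited, with 129 at an unadjusted p under 0.05. The intron level differed by -0.06 (SE 0.12; interval -0.42 to 0.31; adjusted p = 0.91), and limma called 0.0% of the 284 genes in introns, with 5 at an unadjusted p under 0.05. The excess of exons over introns was 1.63, 1.59, 2.22, 3.13 and 2.51. Both total RNA arrays lay below all 3 polyA arrays here, as in 67.6% of genes, and in exons alone the same held for Chd1 and for 65.5% of genes. That excess differed by -1.06 (SE 0.35; interval -2.0 to -0.13), with an adjusted p of 0.07 in limma over 284 genes, where 33.5% of genes were called. The median gene differed by -0.79 in this excess and by -1.0 in exons. That median takes in genes with exon levels below the array median and was not matched to Chd1 for level. A two-sided exact permutation test of the 2 total RNA arrays against the 3 polyA arrays, with MEFB pooled with MEFF, gave p = 0.1 for the excess, the smallest that the 10 assignments allow. The same exact test gave p = 0.2 for exons, 0.4 for introns and 0.2 for the 45 kb stretch.

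The call for Chd1 changed with the processing. After normexp the exon difference was -0.94 (SE 0.29; adjusted p = 0.041 in limma), and the exons of 59.5% of genes were called, all lower in total RNA. The excess then differed by -1.10 (SE 0.29; adjusted p = 0.00043 in limma), with 60.6% of genes called lower. In this fit limma gave all genes the same SE, so this p-value does not rest on the spread of Chd1 itself over the arrays. Quantile normalization between arrays turned the exon difference to 0.11 and that of the excess to 0.03, and loess within arrays turned them to 0.15 and 0.16, with neither called for Chd1. Among all genes, quantile normalization left 47.2% called lower in exons and 48.2% in the excess, and loess 9.15% and 0.0%. With medians of probes in place of means the excess of Chd1 differed by -1.49 (adjusted p = 0.035 in limma). The median gene kept its sign under both, at -0.29 and -0.31 in exons and -0.25 and -0.25 in the excess. Whether Chd1 differs from other genes in this was not tested. The 99th percentile of cDNA intensity over the median, a measure of each array's scale, was 5.42, 5.33, 9.17, 22.36 and 20.73. It was higher on each polyA array than on the total RNA arrays, but on the first MEFF polyA array it lay nearer to total RNA. The SD of probe levels over the chromosome was 0.64, 0.66, 0.66, 1.01 and 0.98, so that array was like total RNA in this measure. The part of array scale in the Chd1 difference was tested only through these scalings. The slide numbers of total RNA arrays and of polyA arrays form separate runs, per the file headers, and slide run cannot be told apart from RNA type.

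The spread between the MEFF polyA arrays set these tests. The second array lay above the first at 56 of the 59 exon probes, and in the exon means of 235 of the 284 genes. Without the first polyA array the excess differed by -1.52 and without the second by -0.61 in limma. The spread then came from the pair of total RNA arrays alone, and limma gave all genes the same SE. The same fits called 72.2% and 62.3% of genes lower. As deposited, leaving out the first total RNA array gave -1.09 and leaving out the second gave -1.04. After normexp these were -1.15 and -1.05, and the call differed between the 2 settings.

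**Figure D5:**
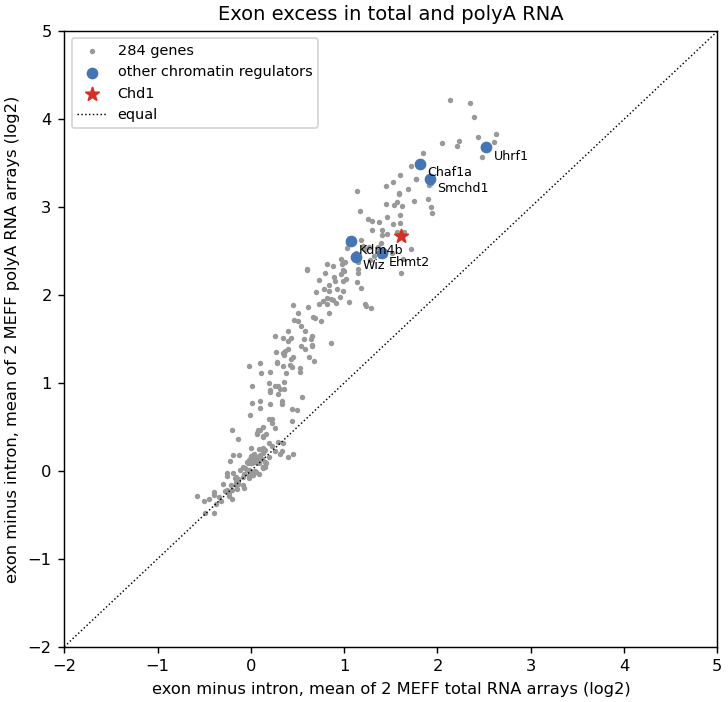
Excess of exons over introns in log2(cDNA/input) for 284 genes, mean of the 2 MEFF polyA RNA arrays against mean of the 2 MEFF total RNA arrays, with Chd1 as a star, 6 other chromatin regulators in blue and a dotted line where both are equal. Chd1 lies above the dotted line, as do most genes with a large excess.

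Within the interval, none of the 9 windows of 5 kb passed limma's threshold for total against polyA RNA, as deposited or after normexp. As deposited limma called 0.0% of all 15383 windows, with 1189 at an unadjusted p under 0.05, and after normexp it called 3.37%. In 5 of the 9 windows both total RNA arrays lay below all 3 polyA arrays, against 15% of all windows. The 9 windows were chosen for their signal and all windows were not, so these shares are not of like sets. Among exon means of the 284 genes the share was 65.5%. The 45 kb stretch as a whole differed by -0.34 (SE 0.14; interval -0.72 to 0.04; adjusted p = 0.52 in limma over 1871 stretches, of which 0.0% were called and 191 had an unadjusted p under 0.05). After quantile normalization the difference was 0.05 and after loess 0.0020. The count of windows called was 8 without the first MEFF polyA array and 3 without the second, all lower in total RNA, where the same fits called 17.3% and 16.2% of all windows lower.

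The lines were then set side by side in the same RNA fraction, polyA RNA. Chd1 exons differed by 0.04 (log2, MEFB minus MEFF; SE 0.54; interval -1.56 to 1.64; adjusted p = 0.98 in limma, with 1.41% of genes called), and introns by 0.20 (SE 0.15; interval -0.24 to 0.65; adjusted p = 0.64, with 0.0% of genes called). The excess of exons over introns differed by -0.16 (SE 0.42; interval -1.31 to 0.99; adjusted p = 0.92, with 2.82% of genes called). The intervals allow differences of more than 1 log2 unit in exons either way, so the lines were not shown to be alike. The exon difference was -0.36 after normexp and -0.22 after quantile normalization.

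Probe by probe, MEFB exceeded both MEFF polyA arrays at 17 of the 59 exon probes (28.8%), lay below both at 11 and between them at 31. The background over exon probes of all genes was 36.3% above and 26.8% below. At the intron probes MEFB exceeded both at 157 of 287 (54.7%), against 41.6% of all intron probes. None of the 9 windows was called in this contrast, where limma called 0.0065% of all windows. The stretch differed by 0.22 (SE 0.18; interval -0.242 to 0.685; adjusted p = 0.55, with 1.02% of stretches called). The exon difference was -0.52 without the first MEFF polyA array and 0.60 without the second, so its sign depends on which of them is set against MEFB. Each of these fits sets 1 array against 1, with a spread that comes from the pair of total RNA arrays alone. It called 45.1% of genes lower in MEFB without the first and 56.3% higher without the second, Chd1 among them (adjusted p = 0.0074 and 0.0042 in limma). Windows called numbered 1, lower in MEFB, without the first and 8, higher in MEFB, without the second, against 19.2% of all windows lower and 22.5% higher in the same fits.

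Among the 284 genes with at least 5 exon and 20 intron probes, Chd1 ranked in the upper part. Its exon level was at the percentile 90.3, 89.3, 79.4, 79.8 and 72. Its intron level was at the percentile 83.3, 81.9, 76.2, 68.5 and 76.9. These ranks were higher in exons in total RNA than in polyA RNA, and they inherit the choice of the interval for its level.

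The list of 16 other chromatin regulators of the chromosome had 6 members with enough placed probes: Ehmt2, a histone H3 lysine methyltransferase gene; Wiz, a zinc finger partner of it; Kdm4b, a histone demethylase gene; Uhrf1, a reader of hemimethylated DNA; Chaf1a, a subunit of a histone chaperone; and Smchd1, which acts in X inactivation. In the excess of exons over introns, limma called 5 of 6 lower in total than in polyA RNA and 0 higher, against 33.5% of all genes lower, with a median of -1.35 against -0.79 over all genes. After quantile normalization 3 of 6 were called lower (median -0.30, range -0.60 to 0.15), against 48.2% of all genes. After loess 0 of 6 were called (median -0.40, range -1.14 to 0.23), against 0.0% of all genes. Some members changed sign under these scalings. The member closest to Chd1 was Ehmt2, with a difference of -1.07 (SE 0.26; adjusted p = 0.047), and the most distant was Chaf1a, with -1.69 (SE 0.29; adjusted p = 0.045). In exons alone 0 of 6 were called as deposited and 6 of 6 were lower after normexp, against 59.5% of all genes. In introns 0 of 6 were called as deposited and 2 of 6 were lower after normexp, against 3.52% of all genes. In MEFB against MEFF, as deposited, 0 of 6 were called in exons, introns or the excess. After normexp 2 of 6, Chaf1a and Kdm4b, were lower in MEFB in exons, by -1.81 (adjusted p = 0.038 in limma) and -1.77 (adjusted p = 0.047), against 5.63% of all genes. In the excess 1 of 6, Kdm4b, was then lower in MEFB, against 4.58% of all genes.

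The 3 stretches of 45 kb whose levels on the 5 arrays lay closest to those of Chd1 were found by Euclidean distance over the 5 arrays among 1871 stretches. The closest began at position 85555000 of the files (distance 0.17), with levels of 0.73, 0.68, 0.90, 1.44 and 1.36, and held Rhoq, a small GTPase gene, and Pigf, a gene of the GPI anchor pathway. The next began at 87220000 (distance 0.189), with 0.71, 0.67, 0.84, 1.32 and 1.17, and at 45100000 (distance 0.223), with 0.66, 0.63, 0.74, 1.29 and 1.35, and neither was placed.

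As a check of the cell type, the chromosome holds few markers. Of the fibroblast markers, Cyp1b1 had exon levels of 0.77, 0.77, 1.47, 2.49 and 4.98 (36 probes) and Thbs2 was not placed. Of the macrophage or antigen-presenting markers, H2-Eb1 had 0.03, -0.12, 0.08, -0.01 and -0.55 (7 probes), near or below the array median, and Trem2 and H2-Aa were not placed. Epcam (epithelial), Pou5f1 (pluripotent) and T (mesoderm) were not placed. Cyp1b1 was highest on the MEFB array, and the part of such line differences in the Chd1 values was not tested.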

How the data were processed

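The deposited files hold raw probe intensity per channel, extracted by the authors with NimbleScan 2.2.34, per the file headers, with no background subtraction or normalization evident in the values. A genome build for these positions was not given in the sources used here. Input DNA was T7 amplified and labelling was done by the array maker, per the labels' protocols. Dyes were not swapped.

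Per probe, log2(cDNA/input) was centred on the array median. Of 3350 blocks of 25 kb, 1924 were placed on NCBIM37 (735 by their own best shift, the others by agreement with a neighbour within 500 bases). Of 40 blocks simulated, 28 met the rule for an own best shift and 28 of these were placed correctly. The simulated blocks were drawn from placed blocks, and their signal came from the fitted model of base composition with a fixed level of noise. The simulation thus takes that model as true and does not give the accuracy on the measured blocks. Placing by a neighbour was not simulated. Exon and intron means (at least 5 and 20 probes), 5 kb windows (at least 8 probes) and 45 kb stretches (at least 60 probes) were compared with limma 3.58.1 (lmFit, eBayes) in R 4.3.3, on 5 arrays in 3 groups with 2 residual degrees of freedom. The Benjamini-Hochberg adjustment ran over all features and the threshold was 0.05. The fit was tested on simulated data. In the contrast of lines, the spread of MEFB, with 1 array, was taken to equal that of the other groups.

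Named genes were Chd1, its 2 neighbours on each side, the 3 nearest stretches and the chromatin regulators most like and unlike it. Members, lists and tests were chosen with earlier results of these data known. Alternatives were normexp (offset 50), quantile, loess (span 0.3), leaving out the 10% of probes dimmest in input, the cDNA channel alone and medians. Further ones were any exon overlap, windows of 2 and 10 kb, the compared groups alone, and leaving out each MEFF array. For exons and introns in the contrast of lines all these alternatives were added after seeing the data. Replicate numbers follow the order of deposit and pair no arrays.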

Additional observations from a re-analysis of the deposited data

How the results depend on the processing

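For total minus polyA RNA in MEFF, differences kept their sign under the cDNA channel alone, medians of probes and the filter on dim input. This held for stretch, exons, introns and the excess of exons over introns, and under any exon overlap for the latter 3. The compared groups alone gave the same fit by construction in this contrast, since the lone MEFB array has its own mean. Quantile normalization reversed the stretch to 0.0512, exons to 0.107, introns to 0.081 and the excess to 0.0258. Loess reversed the stretch to 0.00199, exons to 0.15 and the excess to 0.16. Normexp reversed introns to 0.16, and it brought exons (-0.94) and the excess (-1.10) past the threshold, as medians of probes did for the excess (-1.49). For MEFB minus MEFF, exons were reversed by normexp (-0.36), quantile normalization (-0.22) and medians (-0.16), and the excess by loess (0.0135) and the cDNA channel alone (0.0478). The cause of these reversals was not tested. Leaving out each array in turn, as deposited and after normexp, gave total minus polyA ranges of -0.54 to -0.0178 for the stretch, -1.68 to -0.56 for exons, -0.17 to 0.25 for introns, -1.52 to -0.61 for the excess and 0 to 8 windows called. The same ranges for MEFB minus MEFF were -0.00681 to 0.42, -0.73 to 0.60, 0.0313 to 0.31, -0.76 to 0.30 and 0 to 8. As deposited, limma's threshold was passed without either MEFF polyA array for the total minus polyA stretch, exons and excess, and for introns without the first. For MEFB minus MEFF it was passed for exons and excess without either, and for stretch and introns without the second. These fits had the spread of the total RNA pair alone. Windows of 2 and 10 kb gave 0 calls in Chd1 in both contrasts. The shares called over all windows of these sizes are not given here. Over all 5 kb windows as deposited they were 0.0% for total minus polyA and 0.0065% for MEFB minus MEFF. A count of 0 therefore says little about Chd1. No paired analysis was possible because the labels number no replicates. A slide block was not run, because each array is its own slide and the slide runs hold either total or polyA RNA. With 2, 2 and 1 arrays a group, precision is limited by their number.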
